A study of Mus musculus with 6 samples.

Results

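The insulator protein CTCF and the factors that load, stabilise and release cohesin were described in tailbud tissue, which contains the presomitic mesoderm, of wild-type embryos and of embryos homozygous for a mutant allele of Smchd1. The 10 genes were Ctcf, Rad21, Stag1, Stag2, Nipbl, Mau2, Wapl, Pds5a, Pds5b and Esco2, chosen by name from what is known of their products, out of 35506 genes in the deposited RNA-seq table. All 10 passed the filter on low values, which left 14134 genes. Polyadenylated RNA of 6 single embryos at the 8-somite stage (E8.5), all on the FVB/NJ background and untreated, was sequenced. The genotypes were Smchd1+/+ (WT, n = 3) and Smchd1MommeD43/MommeD43 (MommeD43, n = 3). MommeD43 is a missense allele recovered in a chemical mutagenesis screen, so that Smchd1 is mutant in every cell of the embryo and its transcript need not fall. Each genotype is represented by a male (replicate 1) and a pair of females (replicates 2 and 3). The males shared a mother, and no other embryos did.

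Cohesin is a ring of SMC1A, SMC3 and RAD21 that holds sister chromatids together and also extrudes loops of chromatin. Loops grow once NIPBL and MAU2 have engaged the ring, stop where CTCF is bound to its oriented sites, and are lost when WAPL opens the ring. SMCHD1 is itself a non-canonical SMC protein that acts on the inactive X chromosome and on clustered genes, including Hox genes, and the comparison here asks whether transcripts of the canonical loop machinery differed in its mutant.

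None of the 10 factors passed the test between genotypes. By limma on log2 RPKM (reads scaled to exon length and library total), with Benjamini-Hochberg adjustment over all 14134 genes, 0 of 10 passed an adjusted p of 0.05, and the background was 0 genes, or 0%. At an unadjusted p under 0.05 there were also 0 of 10, against 343 genes (2.43%) in all, and the groups overlapped for every factor, whereas they did not overlap for 999 genes (7.07%). Fold changes on the log2 scale (MommeD43 against WT) ran from −0.13 for Nipbl and Pds5b to 0.01 for Rad21, with a median of −0.07 beside 0.00 for all genes tested. The 95% interval lay within 1.5-fold in either direction for 10 of 10 factors and for 9920 genes (70.2%) in all. The estimate was negative for 9 of 10 factors, against 49.2% of all genes, and the libraries behind this count are described further on. The count of factors at an unadjusted p under 0.05 depended on the WT male and on the method. Without this male 4 of 10 (Nipbl, Stag2, Wapl and Pds5b, all lower in MommeD43) were under 0.05, among 997 of 14134 genes. The limma adjusted p was 0.69 for each. With all 6 libraries, voom with quality weights put the same 4 factors under 0.05, among 816 of 14134 genes. All were lower in MommeD43, with an adjusted p of 0.824 for each by voom.

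**Figure D1:**
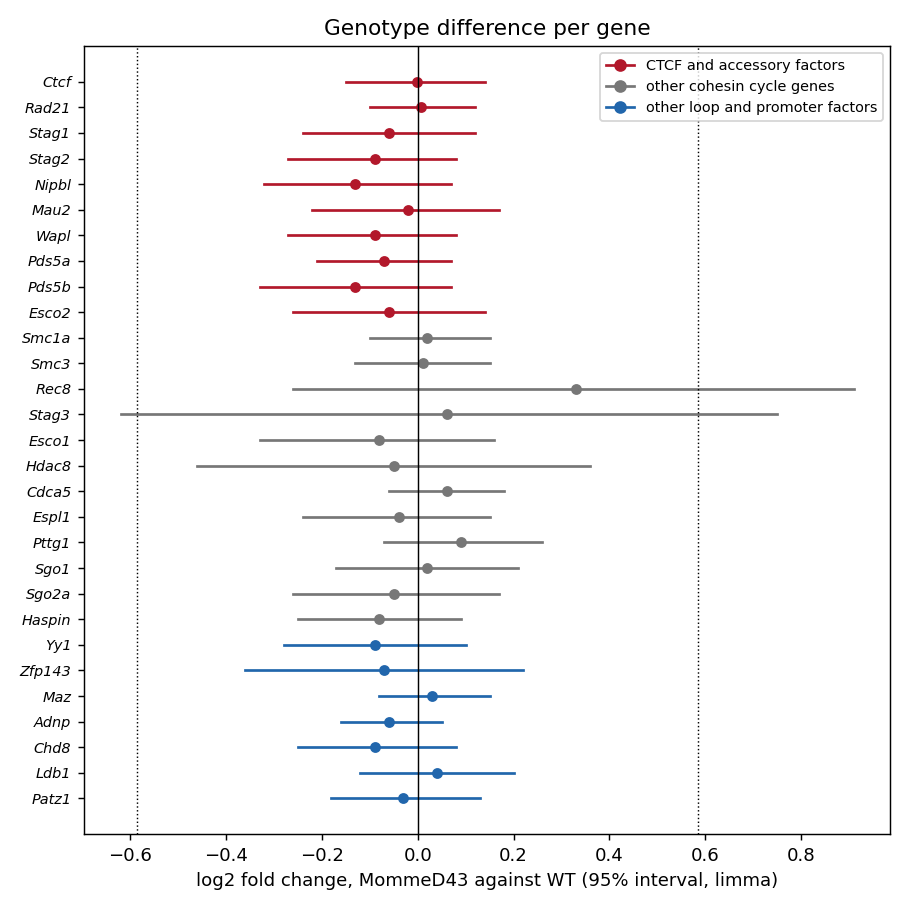
Log2 fold change of MommeD43 against WT (horizontal axis) with its 95% interval from limma for the 10 factors (red), 12 other genes of the cohesin cycle (grey) and 7 other loop or promoter factors (blue), 3 libraries per genotype. The dotted lines mark 1.5-fold; all red intervals include 0 and lie between them, and only Rec8 and Stag3 reach past them.

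Library totals ranged from 10957916 to 47298348 reads, a 4.32-fold difference in depth. The factors were well covered, from 486 reads of Esco2 in MommeD43 replicate 1 to 18692 reads of Rad21 in MommeD43 replicate 2. Counting error amounted to a coefficient of variation of 1.17% for Rad21 up to 3.47% for Esco2. The spread among WT embryos was 2.04% to 10.6%, and that among MommeD43 embryos 1.38% to 7.15%. Smchd1 itself stood at 8.07 ± 0.672 (WT) and 7.58 ± 0.4 RPKM (MommeD43; SD, n = 3 each; limma adjusted p = 0.9995), which does not check the labels of a missense allele. All 8 tailbud markers were detected. So were all genes of the blood and yolk sac lists described further on, so detection alone does not check the tailbud label. Between genotypes 0 of the 8 tailbud markers passed by limma and 1 was under an unadjusted p of 0.05. Their log2 fold changes ran from −0.09 to 0.47. In bulk tissue, fewer cells of a type and less RNA per cell cannot be told apart.

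The factors fell into a steady order of RPKM, which divides reads by the length of all annotated exons of a gene. The order between genes therefore depends on these lengths. Pds5a, for one, had more reads than Pds5b in every library (9319 and 5800 in WT replicate 1), but its exons cover 19335 bases beside 9839. Means of all 6 libraries were 92.1 RPKM for Rad21, 40.4 for Ctcf, 27.0 for Wapl, 24.2 for Stag2, 17.2 for Pds5b, 16.8 for Nipbl, 13.5 for Pds5a, 13.0 for Stag1, 8.74 for Mau2 and 6.74 for Esco2, a span of 13.7-fold. Rad21 stood at the 97.1 percentile of the genes tested and Esco2 at the 55.5 percentile. The order of neighbours held in 6 of 6 libraries for every pair but Pds5b and Nipbl. These differed by 0.04 on the log2 scale, less than the SD of that difference over libraries (0.09), and held their order in 4 of 6 libraries. Pds5a and Stag1 differed by 0.06 with an SD of 0.06.

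**Figure D2:**
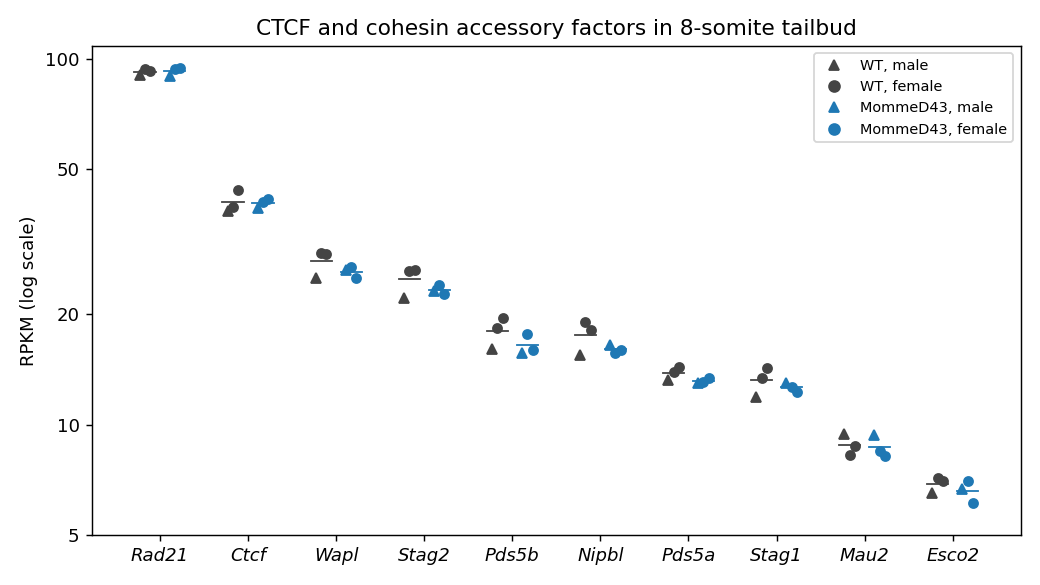
Level of each factor in RPKM (vertical axis, log scale) in every library, in order of mean level; grey symbols are WT and blue symbols MommeD43, triangles are males and circles females, and each short line is the mean of 3 libraries. From Rad21 at the top to Esco2 at the bottom, the blue and grey symbols of every factor overlap.

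CTCF, a zinc-finger protein, blocks extruding cohesin at its bound motifs. Ctcf (ENSMUSG00000005698, GRCm38 chr8:105636568-105682922, plus strand) was at 38.2, 39.4 and 43.7 RPKM in WT replicates 1, 2 and 3. It was at 39.1, 40.6 and 41.3 RPKM in the MommeD43 replicates. The mutant values lay inside the WT range. Means were 40.5 ± 2.9 and 40.3 ± 1.12 RPKM (SD, n = 3), and the 95% interval of the change ran from −9.75% to 10.5%. Of its 75-base windows, the length of the reads, 5.95% also occurred, read on either strand, in transcripts of Agrp or Gm5914. These genes overlap 7.61% of the exons of Ctcf on the other strand. The strand setting of the counting was not given, so a small part of the reads of Ctcf is uncertain.

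RAD21 is the kleisin that closes the ring and is cut by separase at anaphase. Rad21 (ENSMUSG00000022314, chr15:51962240-51991747, minus strand) was at 89.9, 93.6 and 92.2 RPKM in WT and at 89.4, 93.4 and 94.4 RPKM in MommeD43. It varied least of the 10 factors, with 1.06-fold between its highest and lowest library. Means were 91.9 ± 1.88 and 92.4 ± 2.65 RPKM, and its interval was the narrowest of the 10, from −6.88% to 8.5%. The SMC arms of the ring, which are not among the 10, also overlapped between genotypes. Smc1a averaged 47.4 ± 1.54 (WT) and 48.2 ± 2.05 RPKM (MommeD43), and Smc3 at 48.1 ± 1.95 and 48.5 ± 2.88 RPKM. The log2 fold changes were 0.02 ± 0.05 for Smc1a and 0.01 ± 0.06 for Smc3 (SE).

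STAG1 and STAG2 are alternative subunits that bind RAD21, and each ring holds either one or the other. Stag1 (ENSMUSG00000037286, chr9:100597798-100959375, plus strand) was at 11.9, 13.4 and 14.3 RPKM in WT and at 13.0, 12.7 and 12.3 RPKM in MommeD43. Stag2 (ENSMUSG00000025862, chrX:42149317-42277185, plus strand) was at 22.2, 26.3 and 26.5 RPKM in WT and at 23.2, 24.0 and 22.8 RPKM in MommeD43. For both genes the lowest library was the WT male and the highest was a WT female, so that the mutants lay between WT embryos. Log2 fold changes were −0.06 ± 0.08 for Stag1 and −0.09 ± 0.08 for Stag2 (SE; limma adjusted p = 0.9995 for each).

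Similar paralogues can exchange reads, so the longest identical stretch of coding sequence was found for each pair. It was 23 bases for STAG (from base 1147 of 3774 in Stag1 and base 1138 of 3804 in Stag2) and 23 bases for PDS5 (from base 2863 of 3996 in Pds5a and base 2836 of 4347 in Pds5b). Both are printed 5′ to 3′ in lower case, since a shared stretch this short is well under the 75-base reads. No 75-base window of Stag1, Stag2 or Pds5b occurred in a transcript of any other gene, and 0.812% of those of Pds5a did, none of them in Pds5b.
Stag1 and Stag2: cttgacaaagaatatgatgttgc
Pds5a and Pds5b: tgtgccaaagaccctgtgaaaga

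Stag2 was above Stag1 in every embryo, in reads as in RPKM. The ratio of Stag2 to Stag1 RPKM was 1.86, 1.96 and 1.85 in WT and 1.79, 1.89 and 1.85 in MommeD43. Means were 1.89 ± 0.0617 and 1.84 ± 0.0497, and the groups overlapped. The difference on the log2 scale was −0.04 ± 0.04 (SE; exact permutation test, two-sided, p = 0.4, adjusted p = 0.9 over 6 ratios). With 3 libraries against 3 this test cannot give a p below 0.1. A ratio taken within a library does not depend on how that library was scaled, but its size does depend on the exon lengths of the genes. A shift that differs between long and short genes, described further on, would stay in a ratio. The ratios were not centred by gene span.

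NIPBL and MAU2 form the complex that loads cohesin and drives extrusion. Nipbl (ENSMUSG00000022141, chr15:8290617-8444463, minus strand) was at 15.5, 19.1 and 18.1 RPKM in WT and at 16.5, 15.7 and 16.0 RPKM in MommeD43. Both WT females were above all other libraries, and the WT male was below all others. Means were 17.6 ± 1.87 and 16.1 ± 0.396 RPKM, with a log2 fold change of −0.13 ± 0.08 (SE; unadjusted p = 0.173, limma adjusted p = 0.9995) and an interval from −19.8% to 4.81%. Mau2 (ENSMUSG00000031858, chr8:70016123-70042734, minus strand) was at 9.42, 8.26 and 8.72 RPKM in WT and at 9.36, 8.47 and 8.18 RPKM in MommeD43. Unlike Nipbl, Mau2 was highest in the males of both genotypes. The ratio of Nipbl to Mau2 was 2.01 ± 0.339 in WT and 1.86 ± 0.0964 in MommeD43 (exact permutation p = 0.6, adjusted p = 0.9), and it had the widest range of the 6 ratios, from 1.65 in the WT male to 2.31 in WT replicate 2.

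WAPL removes cohesin from chromatin, and PDS5A and PDS5B bind the ring beside it and take part both in release and in the protection of acetylated cohesin. Wapl (ENSMUSG00000041408, chr14:34673928-34747983, plus strand) was at 25.1, 29.5 and 29.3 RPKM in WT and at 26.4, 26.9 and 25.1 RPKM in MommeD43. As for Nipbl, the WT females were the highest libraries. The ratio of Wapl to Nipbl, the release factor over the loader, was 1.59 ± 0.0424 in WT and 1.63 ± 0.0727 in MommeD43. Its log2 difference was 0.03 ± 0.04 (SE; exact permutation p = 0.6, adjusted p = 0.9).

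Pds5a (ENSMUSG00000029202, chr5:65605721-65698273, minus strand) was at 13.2, 13.9 and 14.4 RPKM in WT and at 13.0, 13.1 and 13.4 RPKM in MommeD43. Pds5b (ENSMUSG00000034021, chr5:150673739-150810690, plus strand) was at 16.1, 18.4 and 19.5 RPKM in WT and at 15.7, 17.7 and 16.0 RPKM in MommeD43. Pds5b varied most of the 10 factors, 1.24-fold between its highest and lowest library, and its WT females were its highest libraries. Log2 fold changes were −0.07 ± 0.06 for Pds5a and −0.13 ± 0.09 for Pds5b (SE; limma adjusted p = 0.9995 for each). The interval of Pds5b ran from −20.4% to 4.99%. The ratio of Pds5b to Pds5a was 1.3 ± 0.07 in WT and 1.25 ± 0.0856 in MommeD43 (exact permutation p = 0.4, adjusted p = 0.9). By reads Pds5a was the higher of the pair in every library, so the direction of this ratio rests on the exon lengths.

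ESCO2 acetylates SMC3 during DNA replication and so fixes cohesion between sister chromatids, while ESCO1 acetylates cohesin outside replication. Esco2 (ENSMUSG00000022034, chr14:65819038-65833994, minus strand) was at 6.5, 7.13 and 7.01 RPKM in WT and at 6.67, 7.01 and 6.09 RPKM in MommeD43. The lowest value was in a MommeD43 female, and the groups overlapped. The paralogues stood at nearly the same RPKM, with a ratio of Esco2 to Esco1 of 1.0 ± 0.0769 in WT and 1.02 ± 0.0585 in MommeD43 (exact permutation p = 0.8, adjusted p = 0.96). By reads Esco2 was above Esco1 in every library, so this equality rests on the exon lengths. Of the 75-base windows of Esco1, 6.4% also occurred in transcripts of Gm7054, so a small part of its reads is uncertain. The ratio of Ctcf to Rad21, the barrier over the ring, was 0.44 ± 0.0298 in WT and 0.437 ± 0.00177 in MommeD43 (exact permutation p = 1.0, adjusted p = 1.0).

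**Figure D3:**
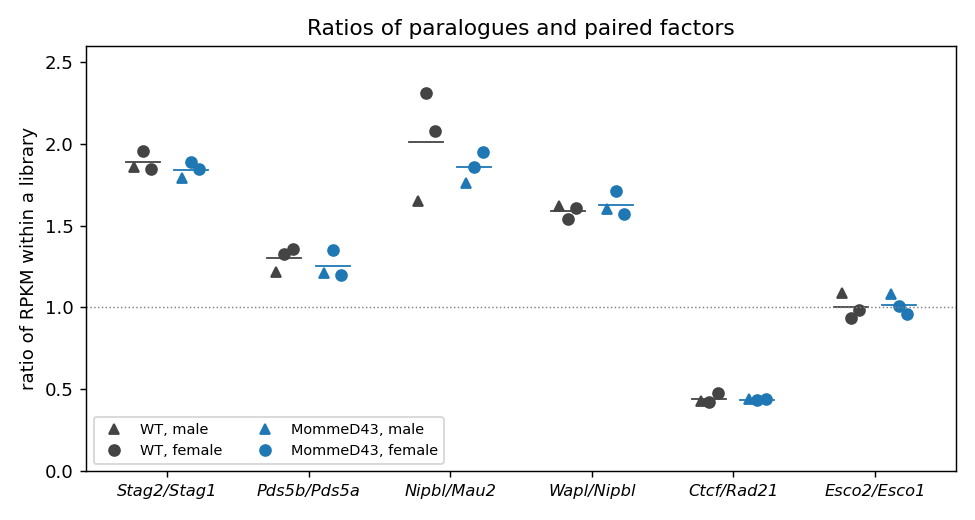
Ratio of the RPKM of paired genes within each library (vertical axis, starting at 0) for 6 pairs; grey symbols are WT and blue symbols MommeD43, triangles are males and circles females, short lines are means of 3 libraries and the dotted line marks a ratio of 1. Blue and grey symbols overlap for all 6 ratios, and Nipbl over Mau2 has the widest range, from 1.65 to 2.31.

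The promoters of the factors were read from RefSeq (GRCm38.p6) as the 250 bases before each annotated start. Windows were found for 6 of 10 factors, namely Ctcf, Stag1, Mau2, Wapl, Pds5a and Pds5b, with 7 windows in all because Mau2 has 2 starts. Those of Ctcf, Pds5a, Pds5b and the first start of Mau2 are printed 5′ to 3′ on the strand of the gene. Each CG is in capitals, to show how dense in CpG these windows are. Any link between the windows and the levels of the factors was not tested.
Ctcf, chr8:105636288-105636537, plus strand: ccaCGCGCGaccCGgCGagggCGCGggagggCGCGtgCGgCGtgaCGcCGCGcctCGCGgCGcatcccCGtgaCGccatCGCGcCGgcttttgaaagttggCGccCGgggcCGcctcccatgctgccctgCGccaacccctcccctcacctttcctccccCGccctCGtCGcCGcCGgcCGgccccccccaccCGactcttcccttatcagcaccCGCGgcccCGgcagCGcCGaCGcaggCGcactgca
Pds5a, chr5:65698237-65698486, minus strand: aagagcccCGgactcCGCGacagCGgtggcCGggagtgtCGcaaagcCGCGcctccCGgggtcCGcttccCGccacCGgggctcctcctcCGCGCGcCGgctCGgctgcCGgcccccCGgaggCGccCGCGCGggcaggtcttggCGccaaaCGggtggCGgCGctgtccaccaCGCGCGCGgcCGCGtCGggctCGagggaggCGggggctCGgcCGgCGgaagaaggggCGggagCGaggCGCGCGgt
Pds5b, chr5:150673577-150673826, plus strand: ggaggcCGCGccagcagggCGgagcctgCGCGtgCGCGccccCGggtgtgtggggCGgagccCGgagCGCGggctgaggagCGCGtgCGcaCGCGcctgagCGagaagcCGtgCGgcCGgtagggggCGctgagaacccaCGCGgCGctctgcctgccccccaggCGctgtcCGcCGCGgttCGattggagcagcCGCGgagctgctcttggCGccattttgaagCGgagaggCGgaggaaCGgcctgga
Mau2, chr8:70042735-70042984, minus strand: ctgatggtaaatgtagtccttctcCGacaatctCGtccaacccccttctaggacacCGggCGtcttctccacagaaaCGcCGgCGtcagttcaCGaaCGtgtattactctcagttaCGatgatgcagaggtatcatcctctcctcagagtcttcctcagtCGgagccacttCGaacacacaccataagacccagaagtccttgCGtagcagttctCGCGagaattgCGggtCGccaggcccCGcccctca

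The printed windows held 40 CG in Ctcf, 44 in Pds5a, 36 in Pds5b and 18 in Mau2. The ratio of observed to expected CpG was 1.13 for Ctcf, 1.09 for Pds5a, 1.03 for Pds5b and 1.0 for this window of Mau2, and it was 1.14 for Wapl and 0.98 for Stag1. The median over all 32851 promoter windows was 0.37. The other window of Mau2 held a single CG, with a ratio of 0.08. Letters of an E2F site (TTTCCCGC or TTTGGCGC, on either strand) were in the windows of Stag1 and Pds5a and in 1.3% of all windows. CCAAT, on either strand, was in those of Stag1, Wapl and Pds5b and in 33.8% of all windows. These are matches of letters and say nothing of binding.

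The libraries of the WT females stood apart for many of these factors, a pattern noticed after the values were seen. Both WT females were above the other 4 libraries for 7 of 10 factors (Stag1, Stag2, Nipbl, Wapl, Pds5a, Pds5b and Esco2), against 1667 of 14134 genes (11.8%). The WT male was the lowest library of all for Ctcf, Stag1, Stag2, Nipbl and Wapl, an order that was not counted over all genes. For the last 4 of these factors, a lower mean in MommeD43 thus came with a WT male at or below every mutant.

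**Figure D4:**
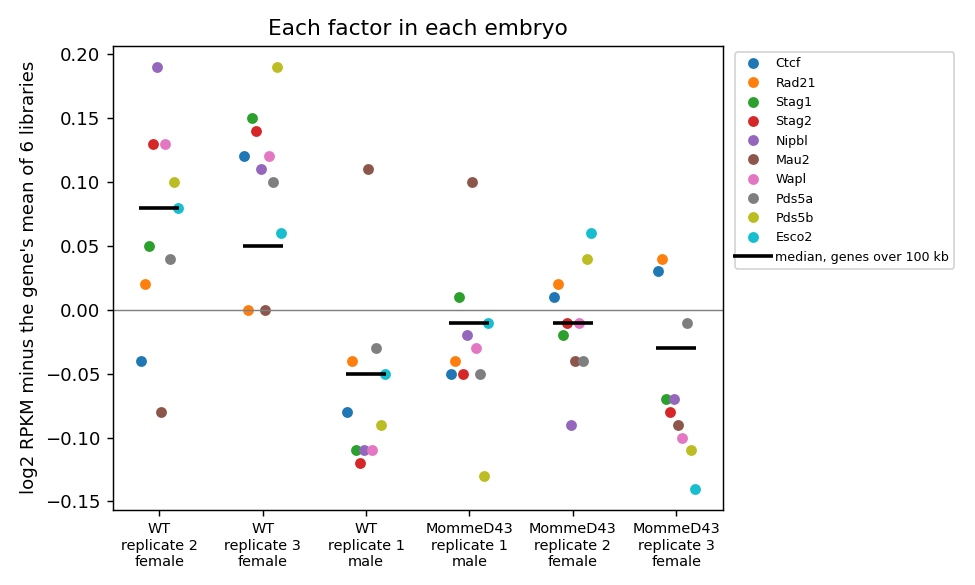
Deviation of each factor in each library from that factor's mean of 6 libraries (vertical axis, log2 RPKM), with black bars for the median deviation of 1956 genes that span over 100 kb. WT females lie mostly above 0 and the WT male mostly below, where the bars stand at 0.08 and 0.05 for WT replicates 2 and 3 and at −0.05 for WT replicate 1.

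Most of these factors are long genes, and long genes as a class moved with the same libraries. Stag1, Stag2, Nipbl, Wapl, Pds5a and Pds5b each span over 50 kb, and 6 of these 6 had both WT females on top, beside 822 of 3950 tested genes of that span (20.8%). For 1956 genes spanning over 100 kb, the median deviation from the mean of 6 libraries was −0.05, 0.08 and 0.05 in WT replicates 1, 2 and 3 and −0.01, −0.01 and −0.03 in the MommeD43 replicates, on the log2 scale. For 1872 genes under 5 kb it was 0.04, −0.03 and −0.04 in WT and −0.00, 0.02 and 0.07 in MommeD43. When values were centred in each library on genes of like span, an alternative chosen after seeing the data, 7 of 10 factors had a negative estimate, the median was −0.04, and Ctcf and Stag1 changed sign to 0.02 and 0.0045.

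Tissue markers also differed between these embryos. The summed level of 8 blood markers was 8.9, 485.8 and 205.2 RPKM in WT replicates 1, 2 and 3 and 25.5, 220.0 and 22.8 RPKM in MommeD43. That of 8 yolk sac markers was 136.3, 246.3 and 276.9 RPKM in WT and 430.6, 50.6 and 37.2 RPKM in MommeD43. All genes of both lists had reads. The yolk sac sum was higher in both WT females than in both MommeD43 females, whereas the blood sums of the females overlapped between genotypes. In females alone, limma called 4 of the 8 yolk sac markers lower in MommeD43 (smallest adjusted p = 0.000146), and 8 of 8 were under an unadjusted p of 0.05. The summed level of the 8 tailbud markers was 700.5, 501.1 and 490.3 RPKM in WT and 504.7, 587.8 and 606.3 RPKM in MommeD43, so that it was highest in the WT male, the library lowest for several factors, and lowest in the WT females. In females alone, 0 of 8 tailbud markers passed by limma and 6 of 8 were under an unadjusted p of 0.05, with a median log2 fold change of 0.33. The part of gene span, tailbud, blood or yolk sac in the levels of the factors was not tested beyond the centring.

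With females alone, 2 against 2, limma called 0 of 10 factors, and the background was 11 of 14134 genes (0.0778%). At an unadjusted p under 0.05 there were 3 of 10 factors, all lower in MommeD43, against 1250 genes (8.84%) of either direction and 613 genes lower (4.34%) in all. The mutant females were both below the WT females for 7 of 10 factors, against 2911 genes (20.6%). Their log2 fold changes were −0.23 ± 0.07 for Nipbl (unadjusted p = 0.0116, limma adjusted p = 0.509), −0.17 ± 0.06 for Stag2 and −0.18 ± 0.06 for Wapl (SE; limma adjusted p = 0.551 for each). The median of the 10 was −0.13. When the female values were centred on genes of like span, limma was fitted again. The estimate was −0.16 for Nipbl, −0.10 for Stag2 and −0.11 for Wapl, and only Nipbl kept an unadjusted p under 0.05 (limma unadjusted p = 0.0467, adjusted p = 0.683).

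The difference between the sexes in the effect of genotype was tested directly as an interaction, with 1 male per genotype. The error of this fit comes from the 2 pairs of females alone, and each male is assumed to vary like them. No factor passed (0 of 10, against 35 genes or 0.248% in all). Nipbl had an unadjusted p of 0.0302 (limma adjusted p = 0.408), with an estimate of −0.32 on the log2 scale, and 1550 genes (11%) were under 0.05, of which 811 (5.74% of all) had a negative estimate. In the male pair the mutant was 0.09 above WT for Nipbl, with no replicate. For the same interaction, 2 of 8 tailbud markers and 5 of 8 yolk sac markers passed.

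Stag2 is X-linked, as are Smc1a and the SMC3 deacetylase Hdac8, and the sexes were compared in a fit with genotype. By limma, 0 of 10 factors were called, 0 of 10 were under an unadjusted p of 0.05, and the background was 1 gene (0.00708%) called and 1160 genes (8.21%) unadjusted. Stag2 was at 24.9 ± 1.8 RPKM in 4 females and at a mean of 22.7 RPKM in 2 males, a log2 difference (females minus males) of 0.13 ± 0.07 with a 95% interval from −0.04 to 0.30. It was −0.02 ± 0.06 for Smc1a and 0.15 ± 0.19 for Hdac8 (SE). For Stag2 the WT male, at 22.2 RPKM, was below the WT females, at 26.3 and 26.5 RPKM. The MommeD43 male, at 23.2 RPKM, lay between the MommeD43 females, at 24.0 and 22.8 RPKM. The sexes did not overlap for Ctcf and Rad21, higher in females, and for Mau2, higher in males, or 3 of 10 factors beside 2692 genes (19.0%) in all. The largest of these was Mau2, at 9.39 RPKM in males and 8.41 ± 0.244 RPKM in females, with a log2 difference of −0.16 ± 0.07 (SE; limma adjusted p = 0.611). These counts depended on single libraries. Without MommeD43 replicate 3, 2 of 10 factors (Stag2 and Pds5b) were under an unadjusted p of 0.05, beside 1871 of 14134 genes in all. Leaving out either male leaves a single male, whose spread cannot be measured, so counts of those fits are not given. As the males shared a mother, sex and litter cannot be told apart.

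Around the 10 factors, the rest of the cohesin cycle gave the same count. Of 14 other genes, 12 were tested, 0 passed and 0 were under an unadjusted p of 0.05 by limma. Their median log2 fold change was 0.02, with 7 higher and 5 lower, and 10 of 12 intervals lay within 1.5-fold. Cdca5, which encodes sororin, the protector of replicated cohesin, was at 36.6 and 38.3 RPKM in WT and MommeD43. Pttg1, which encodes securin, the inhibitor of separase, was at 31.0 and 33.1 RPKM, and separase itself (Espl1) at 19.4 and 18.9 RPKM. The shugoshins, which guard centromeric cohesin, had log2 fold changes of 0.02 for Sgo1 and −0.05 for Sgo2a, of whose exons 35% overlap Kctd18 on the other strand. Haspin, a mitotic histone kinase, and Esco1 were each at −0.08, and Hdac8 at −0.05.

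Subunits of the meiotic ring were at low levels. Rec8, the meiotic kleisin, had mean levels of 0.414 ± 0.0167 (WT) and 0.527 ± 0.114 RPKM (MommeD43), and its log2 fold change of 0.33 ± 0.25 was the largest of the list without passing. Stag3 was at 0.935 ± 0.412 and 0.926 ± 0.106 RPKM. Smc1b had at most 5 reads in a library and Rad21l at most 1, and neither was tested. Ctcfl, the germline paralogue of Ctcf, had 2 reads in the WT male and 0 in the other 5 libraries. A count of 0 with a floor of 3 reads allows up to 0.0851 RPKM in the shallowest library and 0.0197 RPKM in the deepest, which covers counting error only.

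Of 8 other loop or promoter factors, 7 were tested, 0 passed and 0 were under an unadjusted p of 0.05 by limma, and their median was −0.06. Maz was at 84.0 and 85.9 RPKM in WT and MommeD43, Ldb1, which bridges enhancers and promoters, at 42.5 and 43.7 RPKM, and Yy1 at 23.1 and 21.8 RPKM. Log2 fold changes were −0.09 for Chd8, −0.07 for Zfp143 and −0.03 for Patz1. Adnp, at −0.06, was the gene of the 7 whose groups did not overlap, and 82.1% of its exons are shared with Gm20716 on the same strand, so its value is uncertain.

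Genes of dividing cells were followed because Esco2 and several cohesin genes are expressed with the cell cycle. Of 14 S phase genes and 11 G2 and M phase genes, 0 passed and 0 were under an unadjusted p of 0.05 by limma. The summed level of the S phase genes ranged from 1057.6 to 1130.7 RPKM among WT embryos and from 1078.0 to 1135.1 RPKM among MommeD43 embryos, and that of the G2 and M phase genes 705.3 to 723.3 and 677.0 to 727.5 RPKM. The smallest p in each list belonged to Cdt1, a licensing factor, with a log2 fold change of −0.07, and to the cyclin gene Ccnb1, with −0.11. For Ccnb1 the groups did not overlap (50.5 ± 1.78 in WT and 46.8 ± 0.959 RPKM in MommeD43, SD). This held for 1 of 11 G2 and M phase genes and 0 of 14 S phase genes, beside 7.07% of all genes.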

How the data were processed

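Stranded libraries of polyadenylated RNA from 6 embryos were analysed, grouped by the genotype and replicate numbers of the labels. The source field of the labels says NSCs, but the tissue field and titles name tailbud, which was followed. Per the submitters' processing notes, Trim Galore 0.4.4, HISAT2 2.0.5 and GRCm38.p6 were used, and the study's methods give SeqMonk for quantitation. The strand setting of the counting was not given in the sources used here. The authors deposited log2 RPKM per gene, and their group means were not used. Exon lengths of GENCODE M21 gave back whole reads: 98.5% of 27287 values of up to 20 reads were whole within 0.02. Totals ran from 10957916 to 47298348 reads.

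The filter asked for 15 reads over all libraries, and in 3 or more of them for the RPKM worth 10 reads at median depth. A mean-variance trend in limma 3.58.1, run in R 4.3.3, was used, and the model was fitted to the deposited log2 values of all 14134 genes, without a pseudocount, two-sided, with Benjamini-Hochberg adjustment. A gene with no read had been given the value of 0.9 read. Ratios were tested by exact permutation. Python 3.11.15 and scipy 1.17.1 served other steps, and code was tested on simulated data. The genes and lists were chosen with earlier results of these data known. Named genes were the 10 factors, 2 related lists, the smallest p of each other list, Smchd1 and the 3 genes most like the most variable factor. Alternatives were median-ratio scaling, pseudocounts of 0.1 and 1 RPKM, other filters, autosomes alone, the replicate block, sex as covariate, omission of single libraries, females alone, and voom with quality weights. Centring by gene span (20 bins) was added after seeing the data.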

Additional observations from a re-analysis of the deposited data

Results flagged for a closer look

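Genotype differences of 7 marker genes differed between the sexes by the interaction term of limma at an adjusted p of 0.05, and these genes were named after their values were seen. The interaction (female minus male log2 fold change of MommeD43 against WT) was 0.91 for T and 1.06 for Msgn1, both tailbud markers. It was −4.26 for Ttr, −4.58 for Afp, −4.81 for Apob, −4.85 for Cubn and −3.75 for Rbp4, all of the yolk sac. Each genotype had 1 male, so that these values rest on single male embryos. None of the 10 CTCF and cohesin factors passed this test.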

How the results depend on the processing

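The number of genes called between genotypes was 0 except with females alone, where it was 11, all lower in MommeD43. The cause was not tested. No factor was called in any of 179 combinations of factor and alternative, and the smallest limma adjusted p was 0.509. Unadjusted counts over all genes ran from 195 to 997 outside females alone, with 816 by voom. The factors' own unadjusted count was 0 of 10 except for 3 with females alone (1 after centring by gene span), 4 without WT replicate 1 and 4 by voom (Nipbl, Stag2, Wapl and Pds5b in the last 2). By sex, leaving aside fits with a single male, it was 0 except for 2 without MommeD43 replicate 3 and 1 with median-ratio scaling. The counts over all genes in those fits were 1871 and 1187, beside 1160 as reported. Genes called by sex, 1 as reported, ran from 1 to 3 when a female was left out, with 3 without MommeD43 replicate 3. Of the 179 fold changes, 166 kept their sign, and 13, all close to 0, did not. With other filters, autosomes alone, sex as covariate or the replicate block, the estimate itself cannot change in this balanced design. The signs kept there were thus fixed in advance and are no check. Centring by gene span gave 0.02 for Ctcf (0.02 also with females alone) and 0.0045 for Stag1. voom gave −0.01 for Rad21 and 0.01 for Mau2. Leaving out each library in turn gave log2 fold changes of −0.04 to 0.06 for Ctcf (0.06 without WT replicate 3, 0.02 without MommeD43 replicate 1), −0.01 to 0.03 for Rad21 (−0.01 without WT replicate 1, −0.0006 without MommeD43 replicate 2, −0.01 without MommeD43 replicate 3), −0.13 to 0.0018 for Stag1 (0.0018 without WT replicate 3) and −0.08 to 0.03 for Mau2 (0.03 without WT replicate 1, 0.02 without MommeD43 replicate 3). It gave −0.21 to −0.06 for Nipbl, −0.21 to −0.07 for Pds5b, −0.18 to −0.05 for Stag2, −0.17 to −0.05 for Wapl, −0.11 to −0.04 for Pds5a and −0.11 to −0.01 for Esco2. The log2 difference of ratios ran from −0.24 to 0.0047 for Nipbl over Mau2 (0.0047 without WT replicate 2), −0.01 to 0.05 for Wapl over Nipbl (−0.01 without MommeD43 replicate 2), −0.04 to 0.05 for Ctcf over Rad21 (0.05 without WT replicate 3) and −0.03 to 0.08 for Esco2 over Esco1 (−0.03 without WT replicate 2, −0.02 without MommeD43 replicate 1), −0.05 to −0.01 for Stag2 over Stag1 and −0.11 to −0.03 for Pds5b over Pds5a. Stag2, being X-linked, has no value on autosomes alone.

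Number 1 marks embryos of the same mother, the males, whereas numbers 2 and 3 join embryos of different mothers, so the numbers were not taken as pairs. Deviations from the group means correlated at 0.09, 0.33 and −0.19 for numbers 1, 2 and 3 over 10950 genes, and not every embryo correlated best with its own number. With the replicate block, 0 genes and 0 of 10 factors were called, with 321 genes at an unadjusted p under 0.05. The ratio differences cannot change with the block, since each number holds a WT and a MommeD43 library. They were −0.04 for Stag2 over Stag1, −0.06 for Pds5b over Pds5a and −0.10 for Nipbl over Mau2. For Wapl over Nipbl the difference was 0.03, for Ctcf over Rad21 −0.01 and for Esco2 over Esco1 0.02.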

Other observations

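Other genes followed the library pattern of Pds5b, the factor with the largest range (0.31 on the log2 scale). The 3 tested genes with the smallest root mean square difference of centred log2 RPKM over 6 libraries were Mindy4 (0.015), Synj2bp (0.018) and Smad5 (0.025), where the deviation of Pds5b itself was 0.12. Smad5, a transducer of BMP signals, was at 16.8, 19.1 and 19.6 RPKM in WT replicates 1, 2 and 3 and at 16.5, 18.7 and 16.8 RPKM in MommeD43.

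Embryos of the WT group differed among themselves more than those of MommeD43 for 7 of 10 factors by the coefficient of variation, against 7237 of 14134 genes (51.2%). Hes7, an oscillating gene of the segmentation clock, had a log2 fold change of 0.47 ± 0.20 (SE; unadjusted p = 0.0449, limma adjusted p = 0.9995). The smallest p of the other marker lists belonged to Cdh5 for endothelium (log2 fold change 0.44) and Prl3d1 for trophoblast (2.84). For yolk sac, blood, neural cells and somites it belonged to Amn (−1.04), Hbb-y (−1.97), Pax6 (−0.30) and Tcf15 (0.19). Prl3d1 had 0 to 591 reads per library and a 95% interval from −0.63 to 6.32. Hbb-y had 4 to 821 reads and an interval from −5.50 to 1.56. With all 6 libraries none passed by limma (0 called, 0 in these lists at an unadjusted p under 0.05). Some yolk sac markers did pass in females alone.

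By sex, with genotype in the fit, 3 of 12 tested cohesin cycle genes and 1 of 7 loop factors had an unadjusted p under 0.05. The background was 1160 of 14134 genes (8.21%), and no gene of these lists passed by limma. The log2 differences (females minus males) were −0.63 for Stag3, −0.17 for Espl1, 0.19 for Sgo1 and −0.14 for Ldb1 (smallest limma adjusted p = 0.556).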
